A study of Mus musculus with 12 samples.

Results

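The genes described here were 79 genes of cytosolic ribosomal proteins, out of 18211 genes in the expression table. They were taken by name, as symbols that begin with Rps or Rpl followed by a number and at most 1 of the letters a, x and l, together with Rplp0, Rplp1, Rplp2 and Rpsa. The group was chosen from the values themselves, because its genes were higher in PB-020 tumors than in vehicle tumors, so that comparison is given as a description. Of the 79 genes, 31 encode proteins of the small subunit and 48 proteins of the large subunit. 77 passed the filter on low counts, and the other two, Rpl3l and Rpl39l, did not. The rule left out some genes of the same kind, such as Rps3a1, Fau and Rack1, whose symbols differ.

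MC38, a line of mouse colorectal adenocarcinoma, was grown under the skin of C57BL/6 mice, so that transcripts of the tumor cells and of the host cannot be separated by genome. RNA of 12 tumors was sequenced, 3 in each of 4 groups. The study's methods give female mice 5 weeks old, divided into groups 7 days after the cells were injected. CK mice received the vehicle of the oral compound. The PB-020 group received PB-020, an inhibitor of IGF-1R, the receptor of insulin-like growth factor 1, by mouth at 50 mg/kg each day. The anti-PD-1 group received an antibody against the T cell checkpoint receptor PD-1 at 200 μg per mouse on days 9, 12, 15 and 18, and the PB-020+anti-PD-1 group received both. The labels do not say that the 3 tumors of a group came from separate mice, so p-values measure only the spread between these samples. All 4 groups carried the same cell line, and in bulk tumors fewer cells of a type and less RNA per cell cannot be told apart.

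Depth was even, with 16545394 to 17217035 expected counts per tumor. The 8 epithelial keratin and adhesion markers summed to only 3.42 to 5.40 FPKM across the tumors, so these markers of a carcinoma were near 0, while the keratin gene Krt14, counted among the skin epithelium markers, had group means of 92.9 to 183.1 FPKM. Anti-PD-1 tumor 1 stood apart, with 13 skeletal muscle markers summing to 797.6 FPKM against 16.4 to 92.8 FPKM in the other 11 tumors. PB-020+anti-PD-1 tumor 2 stood apart in the ribosomal protein genes. Its sum of skin epithelium markers was the highest, 212.8 FPKM, but close to the 207.9 FPKM of PB-020+anti-PD-1 tumor 1. The median over all tested ribosomal protein genes is also given without anti-PD-1 tumor 1 or PB-020+anti-PD-1 tumor 2. Most values of single genes, and those of motif and length groups and of the other lists, are given with all tumors only.

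Ribosomal proteins are assembled with ribosomal RNA into the small and the large subunit, and the cytosolic ribosome translates all mRNAs made in the nucleus. Their mRNAs are among the most abundant of any growing cell. Most carry a 5′ terminal oligopyrimidine (TOP) tract, a C at the first base followed by a run of C and T, through which mTORC1 and the RNA-binding protein LARP1 set their translation and stability. IGF-1R signals through PI3K and AKT to mTORC1, and this pathway is best known for acting on the translation of these mRNAs.

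Promoter sequence was available for 59 of the 79 genes from RefSeq (GRCm38.p6). A C followed by at least 4 C or T at the annotated start was found in 13 of these 59 (22%), and in 3.01% of all 27025 genes with a promoter. The match had to begin at the annotated base, so a tract set off from it was not counted. Within the 60 bases before and the 30 bases from the start, CTTTCC on the sense strand was found in 14 of the 59 (23.7%) and in 4.93% of all genes. CGGAAG, the core of ETS factor sites, was found on either strand in 22 (37.3%) and in 10.1% of all genes. Matches of the 2 motifs can share bases. In Rps27, Rpl28 and Rpl38 below, CTTTCC lies within the run of C and T at the start, so it is not a separate element there. The 5 genes that passed the test in the combination against CK come first below, then 4 for comparison: Rps6, which encodes the protein phosphorylated by S6 kinase, and Rps27, Rpl28 and Rpl38, which hold CTTTCC. Capitals mark CTTTCC on the sense strand and CGGAAG on either strand, and the 61st base is the annotated start. Rps27l has 2 annotated starts, and only the first listed is printed.
Rps4x (chrX:102189362-102189451, minus strand): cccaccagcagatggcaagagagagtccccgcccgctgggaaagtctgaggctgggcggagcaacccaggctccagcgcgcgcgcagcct
Rpl10 (chrX:74270756-74270845, plus strand): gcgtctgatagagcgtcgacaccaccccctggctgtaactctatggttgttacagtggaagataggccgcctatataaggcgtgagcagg
Rpl36a (chrX:134585594-134585683, plus strand): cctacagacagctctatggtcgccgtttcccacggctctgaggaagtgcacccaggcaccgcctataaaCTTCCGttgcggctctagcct
Rpl39 (chrX:37085193-37085282, minus strand): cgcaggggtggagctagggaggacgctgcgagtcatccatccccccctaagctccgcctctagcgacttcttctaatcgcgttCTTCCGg
Rps27l (chr9:66946026-66946115, plus strand): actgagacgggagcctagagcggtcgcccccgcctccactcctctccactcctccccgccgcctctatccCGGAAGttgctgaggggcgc
Rps6 (chr4:86857338-86857427, minus strand): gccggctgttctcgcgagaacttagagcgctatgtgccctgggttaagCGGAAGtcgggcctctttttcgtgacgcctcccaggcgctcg
Rps27 (chr3:90213619-90213708, minus strand): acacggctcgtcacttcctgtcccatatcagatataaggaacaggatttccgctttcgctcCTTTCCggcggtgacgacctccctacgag
Rpl28 (chr7:4792905-4792994, plus strand): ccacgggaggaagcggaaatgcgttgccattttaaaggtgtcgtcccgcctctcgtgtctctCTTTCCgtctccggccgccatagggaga
Rpl38 (chr11:114668520-114668609, plus strand): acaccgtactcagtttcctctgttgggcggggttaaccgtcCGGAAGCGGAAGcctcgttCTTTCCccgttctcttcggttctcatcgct

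None of the 5 genes that passed the test held CTTTCC in the window printed, and Rpl36a, Rpl39 and Rps27l held CGGAAG there. In the combination against anti-PD-1, the median log2 change was 0.19 over the 13 tested genes with CTTTCC and 0.20 over the 44 without it. With CGGAAG it was 0.26 over 22 genes, and without it 0.19 over 35. In PB-020 against CK, the comparison that chose the genes, the medians were 0.15 with and 0.16 without CTTTCC.

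Levels, in FPKM, which is scaled by length and library total, ran over a wide range. Rps27 had the highest mean over the 12 tumors, 4764 FPKM, followed by Rpl23a at 4537, Rps26 at 4107, Rpl10 at 3254 and Rps12 at 3090 FPKM. These encode proteins of both subunits. Rps27, the highest, ran from 3476 FPKM in anti-PD-1 tumor 1 to 5873 FPKM in PB-020+anti-PD-1 tumor 2. The lower end was set apart: Rpl22 had a mean of 306.5 FPKM, Rps27l 125.7, Rps15a 120.9, Rps20 118.1 and Rps6 45.9 FPKM, while the other 72 tested genes lay between 584.7 and 4764 FPKM. The effective length that the deposited counts and FPKM imply was 4983 bases for Rps15a and 3296 bases for Rps20, the longest of all tested members, so their FPKM is low although their mean counts were 10177 and 6580.2. Rps6 differed from them: its implied length was 1244 bases and its mean count 965, against a mean count of 13933 for Rplp1. Ribosomal protein genes have many processed copies in the genome, and how the authors' estimate divided reads among such copies is not known, so absolute levels between members are uncertain.

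The 2 genes that failed the filter are tissue-restricted copies. Rpl3l, the striated muscle form of Rpl3, was at 2.16 FPKM in anti-PD-1 tumor 1 and at 0.05 to 0.33 FPKM in the other tumors, while Rpl3 itself ranged from 1003 to 1200 FPKM. The tumor with Rpl3l was the tumor with the muscle markers. Rpl39l, a copy of Rpl39 known from the testis, was at 0.18 to 1.97 FPKM, highest in PB-020+anti-PD-1 tumor 2.

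All 79 genes together took 7.43%, 7.01% and 7.14% of the expected counts in CK tumors 1 to 3. In the PB-020 tumors they took 8.19%, 7.70% and 8.31%. In the anti-PD-1 tumors they took 5.70%, 7.45% and 7.72%, and in the combination tumors 7.56%, 8.93% and 7.45%. The lowest and the highest of the 12 tumors were anti-PD-1 tumor 1 and PB-020+anti-PD-1 tumor 2. Each of the PB-020 tumors lay above each of the CK tumors, which is the pattern the genes were chosen for. As a share of TPM, in which short genes weigh more, the 79 genes took 22.2% to 22.6% in CK, 23.4% to 24.8% in PB-020, 18.4% to 23.2% in anti-PD-1 and 22.8% to 25.7% in the combination.

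**Figure D1:**
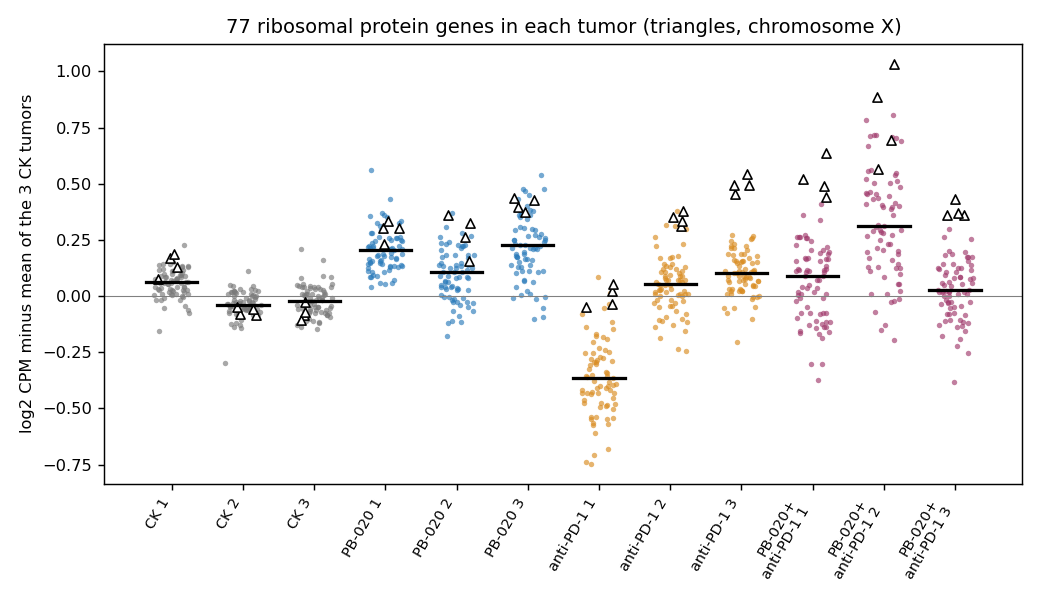
Log2 CPM of the 77 tested ribosomal protein genes in each of the 12 tumors, minus the mean of the 3 CK tumors (points, one gene each, triangles for the 4 genes on chromosome X, black line for the median over the genes). The median lies at −0.36 in anti-PD-1 tumor 1 and at 0.31 in PB-020+anti-PD-1 tumor 2, the lowest and highest of the 12 tumors, and the triangles of the treated tumors lie above their medians.

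The genes shifted together within a tumor. In log2 CPM relative to the CK mean, their median was 0.06, −0.04 and −0.02 in the CK tumors and 0.20, 0.11 and 0.23 in the PB-020 tumors. It was −0.36, 0.05 and 0.10 in the anti-PD-1 tumors and 0.09, 0.31 and 0.03 in the combination tumors. In PB-020 tumor 1 all 77 genes lay above the CK mean, and in anti-PD-1 tumor 1 only 4 did. The medians of the subunits in that tumor were −0.36 for the small and −0.39 for the large subunit. In PB-020+anti-PD-1 tumor 2 they were 0.32 and 0.30. The SD over the 77 genes was 0.06 to 0.07 in the CK tumors, which is small by construction, since their deviations are from their own mean. In the treated tumors it ran from 0.10 in PB-020 tumor 1 to 0.26 in PB-020+anti-PD-1 tumor 2.

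Other measures moved with these 2 tumors. The 1187 other genes of shortest implied length had a median of −0.13 in anti-PD-1 tumor 1, the lowest of the 12 tumors, and of 0.20 in PB-020+anti-PD-1 tumor 2, the highest. Processed copies outside the name rule were also high in the latter: Rpl34-ps1 was at 76.8 FPKM there and at 16.2 to 40.5 FPKM elsewhere, and Rpl31-ps12 at 67.7 FPKM against 16.5 to 45.2 FPKM. The 5 tested skin epithelium markers had a median deviation of 4.11 in PB-020+anti-PD-1 tumor 2 and of 3.42 in PB-020 tumor 3, against −1.22 to 1.16 in the other 10 tumors. The part of these measures in the level of the ribosomal protein genes was not tested. Among the members, change and implied length were not ordered alike: the 20 shortest genes had a median log2 change of 0.27 and the 20 longest 0.24 in the combination against anti-PD-1.

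**Figure D2:**
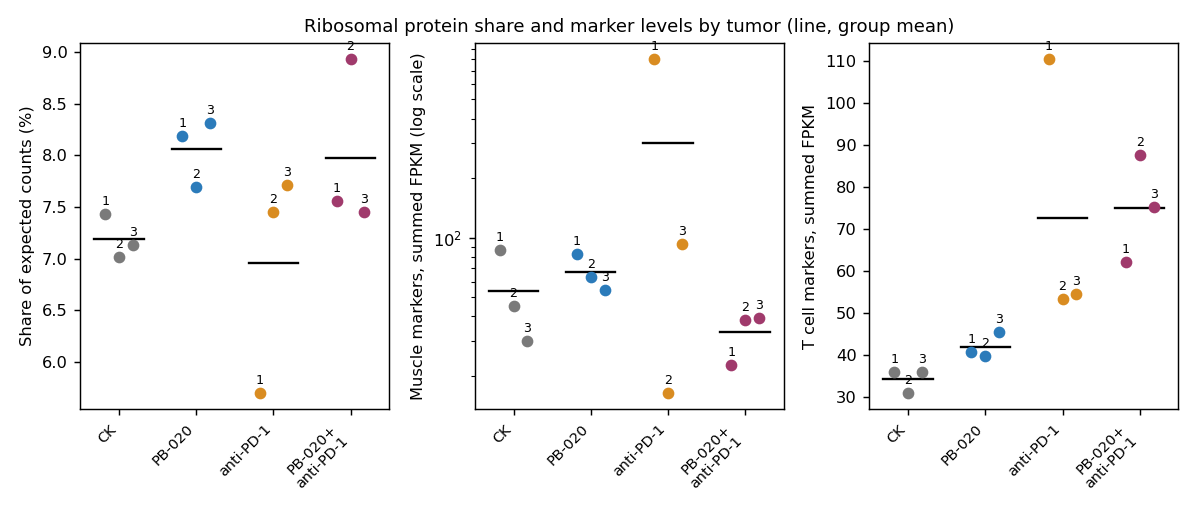
Share of all expected counts taken by the 79 ribosomal protein genes (left, percent), summed FPKM of 13 skeletal muscle markers (middle, log axis) and of 15 T cell markers (right) in each tumor, numbered within its group, with the group mean as a line. Anti-PD-1 tumor 1 has the lowest share, 5.70%, and the highest muscle and T cell sums, 797.6 and 110.5 FPKM.

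In PB-020 against CK, 75 of the 77 tested genes were higher, with a median log2 change of 0.17 and a range of −0.08 to 0.46. The 2 exceptions were Rps28 (−0.08) and Rpl14 (−0.04). Over all 13563 genes tested the median was 0.00, and 48.7% were higher. Of 106 other genes over 400 FPKM, 80.2% were higher (median 0.08), and of the 1187 other genes of shortest implied length 66.0% (median 0.06). In 41 of the 77, all 3 PB-020 tumors lay above all 3 CK tumors, as in 7.78% of all genes. None passed an adjusted p of 0.05 with edgeR or DESeq2. Of all genes tested 0% passed with edgeR, and DESeq2 called 5 higher and 1 lower. 8 genes were higher at an unadjusted p under 0.05 with edgeR and 15 with DESeq2, beside 3.12% and 2.82% of all genes. Since these values chose the genes, nothing is read from the counts. None of the genes of the marker lists passed the test in this comparison, but several lists lay mostly to 1 side. Of the 15 T cell markers 14 were higher, with sums of 40.7, 39.7 and 45.5 FPKM in PB-020 and 35.96, 30.95 and 35.98 FPKM in CK. All 5 tested erythroid and all 8 endothelial markers were lower, and all 10 immediate early stress genes were higher. Of 10 macrophage markers 9 were lower. All 5 tested skin epithelium markers and 10 of 13 skeletal muscle markers were higher. Their part in the ribosomal protein values was not tested. Rps14, which encodes a small subunit protein of the platform, had the smallest p. Its level was 2072, 2128 and 2101 FPKM in CK and 2808, 2499.7 and 3030.3 FPKM in PB-020, a log2 change of 0.42 (standard error 0.12). Rps4x, Rpl10, Rps6 and Rpl21 followed, with log2 changes of 0.35, 0.33, 0.25 and 0.35. 

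The same drug was added to anti-PD-1 in the combination, on 6 other tumors that the choice of genes did not use. Against anti-PD-1 alone, 72 of 77 ribosomal protein genes were higher in the combination, with a median log2 change of 0.19 and a range of −0.13 to 0.54. Of all genes 43.5% were higher, with a median of −0.02. Of the 1187 other genes of shortest implied length 70.0% were higher (median 0.10), and of 106 other genes over 400 FPKM 55.7% (median 0.01). None of the 77 passed an adjusted p of 0.05 with edgeR or DESeq2. Of all genes 0% passed with edgeR, and DESeq2 called 1. 21 genes were higher at an unadjusted p under 0.05 with edgeR and 31 with DESeq2, against 4.45% and 4.42% of all genes, and none was lower with edgeR. When only the 6 tumors of the 2 groups were fitted, 2 of the 77 were higher at that level, beside 3.09% of all genes. In 8 of the 77 genes all 3 combination tumors lay above all 3 anti-PD-1 tumors, beside 4.33% of all genes.

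The size of the shift depended on 2 tumors. Without anti-PD-1 tumor 1, the median log2 change was 0.07, with 52 of 77 genes higher and 1 at an unadjusted p under 0.05. Without PB-020+anti-PD-1 tumor 2 it was 0.12, with 63 higher and 1 at that level. With both left out it was −0.02, with 31 of 77 higher. This pair was picked after the values were seen, as the lowest and highest of the 12 tumors in these genes. Leaving it out had to lower the difference, so nothing is read from the change of sign. Either tumor left out alone kept the sign. Anti-PD-1 tumor 1 was also the tumor with the muscle transcripts: all 13 muscle markers were lower in the combination, with a median log2 change of −3.72. Their summed level was 797.6, 16.4 and 92.8 FPKM in the anti-PD-1 tumors and 22.6, 38.4 and 39.3 FPKM in the combination tumors. The T cell markers summed to 110.5, 53.3 and 54.4 FPKM in the anti-PD-1 tumors and to 62.2, 87.6 and 75.3 FPKM in the combination tumors. The part of either in the ribosomal protein result was not tested.

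The gene with the smallest p in this comparison was Rps27l (gene 67941, chr9:66944624-66949522), a copy of Rps27 and a known p53 target. Its level was 97.0, 102.4 and 119.6 FPKM in the anti-PD-1 tumors and 151.4, 180.3 and 138.9 FPKM in the combination tumors. All 3 combination tumors lay above all 3 anti-PD-1 tumors. The log2 change was 0.54 (standard error 0.11, adjusted p = 0.663). Rpl7, a large subunit protein, was at 1120.2, 1625 and 1646 FPKM in anti-PD-1 and 1840.3, 2279 and 1705 FPKM in the combination. Its groups did not overlap, and the log2 change was 0.40 (standard error 0.14, adjusted p = 0.663). Rps14 (log2 change 0.31), Rpl36a (0.42) and Rpl23 (0.49) followed, and in these the groups overlapped. 5 genes went the other way. Rpl28 had a log2 change of −0.13, Rpl27 of −0.05 and Rpl14 of −0.03, Rps13 and Rpl3 were nearer to 0, and the groups overlapped in all 5. Rpl28 was at 1505, 1763 and 1738 FPKM in anti-PD-1 and 1359, 1511 and 1777 FPKM in the combination.

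12 other p53 targets, a list written after the values of Rps27l were seen, had a median log2 change of −0.03 in the combination against anti-PD-1, with 5 higher, 7 lower and 0 passing the test with edgeR or DESeq2. With edgeR 0 of them were at an unadjusted p under 0.05 in either direction. In the combination against CK, Ccng1 rose (0.25, adjusted p = 0.0461) and Eda2r fell (−0.85, adjusted p = 0.0111).

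**Figure D3:**
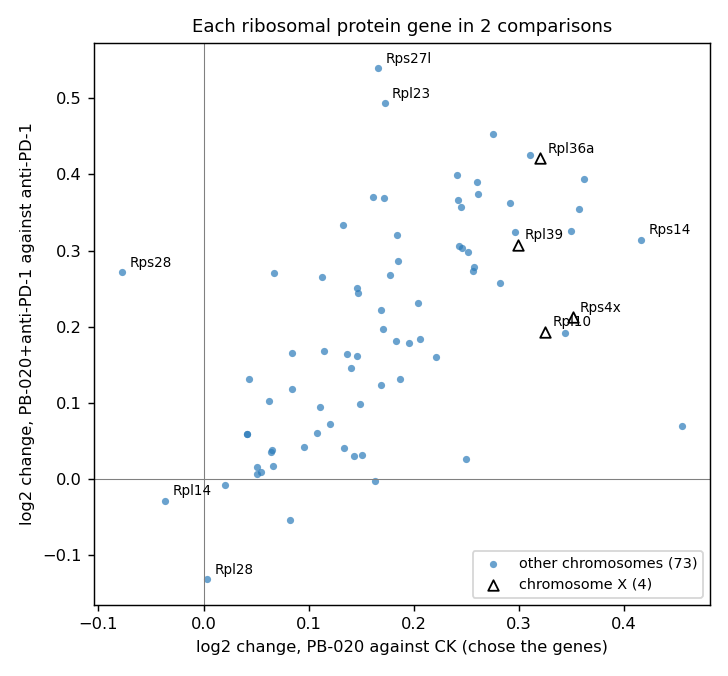
Log2 change of each of the 77 tested genes in PB-020 against CK (horizontal axis, the comparison that chose the genes) and in PB-020+anti-PD-1 against anti-PD-1 (vertical axis), with the 4 genes on chromosome X as triangles. 71 of the 77 genes lie above 0 on both axes, where 75 and 72 lie above 0 on the horizontal and the vertical axis alone. Rps27l is the highest on the vertical axis at 0.54.

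These 2 comparisons share no tumor, only the scaling and the estimate of spread. 71 of the 77 genes were higher in both, 4 in PB-020 against CK alone, 1 in the combination against anti-PD-1 alone, and 1 in neither. With 75 and 72 genes higher in the single comparisons, the count in both was nearly fixed, so nothing is read from it. Without anti-PD-1 tumor 1 and PB-020+anti-PD-1 tumor 2, a pair picked from these values, 31 of the 77 were higher in the combination against anti-PD-1. Across the 77 genes, which are not independent replicates, Spearman's rho between the 2 changes was 0.654. The genes with the greatest spread between tumors of a group were Rpl36, Rpl38 and Rpl23, with SDs of 0.30, 0.27 and 0.26 on the log2 scale, and Rplp0 and Rpl14 were the lowest, with 0.08 and 0.09. The median SD was 0.18 over the members and 0.13 over all genes tested.

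Anti-PD-1 against CK shares the CK tumors with the comparison that chose the genes. 23 of 77 genes were higher, with a median log2 change of −0.05 and a range of −0.38 to 0.32, and 50.1% of all genes were higher. None of the 77 passed the test, where 8.26% of all genes did in either direction. 3 genes were higher at an unadjusted p under 0.05 with edgeR, against 13.6% of all genes, and 1 was lower. DESeq2 called 1 of the 77, and of all 13563 genes 902 higher and 770 lower. The 3 genes higher were Rps4x, Rpl10 and Rps6, and the gene that was lower was Rps28, at 1332, 1351 and 1295 FPKM in CK and 764.5, 1094 and 1130.0 FPKM in anti-PD-1. All 3 anti-PD-1 tumors lay below the CK tumors. Without anti-PD-1 tumor 1 the median was 0.08, with 61 of 77 genes higher, so the lower median rested on this tumor.

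In the combination against CK, 60 of 77 genes were higher, with a median log2 change of 0.15, and 49.6% of all genes were higher. 5 genes passed the test, all of them higher, which is 6.49% of the 77 where 8.35% of all genes were called higher. 17 were higher at an unadjusted p under 0.05, against 16.5% of all genes, and 0 lower. DESeq2 called 11 of the 77 higher, and 10.4% of all genes. The 5 were Rps4x, Rpl36a, Rps27l, Rpl39 and Rpl10. 4 of these 5, all except Rps27l, are the whole set of ribosomal protein genes on chromosome X.

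Rps4x (gene 20102, chrX:102184941-102189391) encodes a small subunit protein. It was at 2539.9, 2355 and 2416 FPKM in CK and 3481, 3842 and 3146 FPKM in the combination. All 3 combination tumors lay above all 3 CK tumors. The log2 change was 0.53 (standard error 0.12, adjusted p = 0.00892). In the PB-020 tumors it was at 2961, 3019 and 3239 FPKM and in the anti-PD-1 tumors at 2506, 3117 and 3363 FPKM, with only anti-PD-1 tumor 1 within the range of CK.

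Rpl10 (gene 110954, chrX:74270816-74273135) encodes a protein that joins the large subunit late and lies near the peptidyl transferase center. It was at 3046, 2558 and 2538 FPKM in CK and at 3788, 3895 and 3464 FPKM in the combination, without overlap. The log2 change was 0.47 (standard error 0.13, adjusted p = 0.0234). PB-020 tumors had 3362, 3208 and 3525 FPKM, and anti-PD-1 tumors 2601, 3339 and 3725 FPKM.

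Rpl36a (gene 19982, chrX:134585654-134588062) encodes a large subunit protein of the exit site. It was at 1188, 1063 and 1061 FPKM in CK and at 1729.8, 2183 and 1493 FPKM in the combination, the largest of the 77 changes (0.72, standard error 0.16, adjusted p = 0.0121). PB-020 tumors had 1286, 1406 and 1423 FPKM, and anti-PD-1 tumors 1037, 1373 and 1569 FPKM. Its autosomal copy Rpl36al, which the rule left out, also rose, from 269.5 ± 20.9 FPKM to 335.9 ± 30.2 FPKM (SD, n = 3), by 0.33 on the log2 scale (adjusted p = 0.0332). How reads were divided between these similar copies is not known.

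Rpl39 (gene 67248, chrX:37082518-37085222) encodes a small protein of the peptide exit tunnel. It was at 1084, 926.5 and 933.6 FPKM in CK and at 1346, 1747 and 1261 FPKM in the combination. All 3 combination tumors lay above all 3 CK tumors. The log2 change was 0.58 (standard error 0.15, adjusted p = 0.0212).

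Rps27l was at 123.4, 107.0 and 109.1 FPKM in CK, against 151.4, 180.3 and 138.9 FPKM in the combination. The log2 change was 0.48 (standard error 0.11, adjusted p = 0.0127). Its near copy Rps27, a zinc finger protein of the small subunit, had a log2 change of 0.31 (adjusted p = 0.152, standard error 0.15), at 3665, 4025 and 4873 FPKM in CK and 4789, 5873 and 4798 FPKM in the combination. The ranges of Rps27 overlapped.

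**Figure D4:**
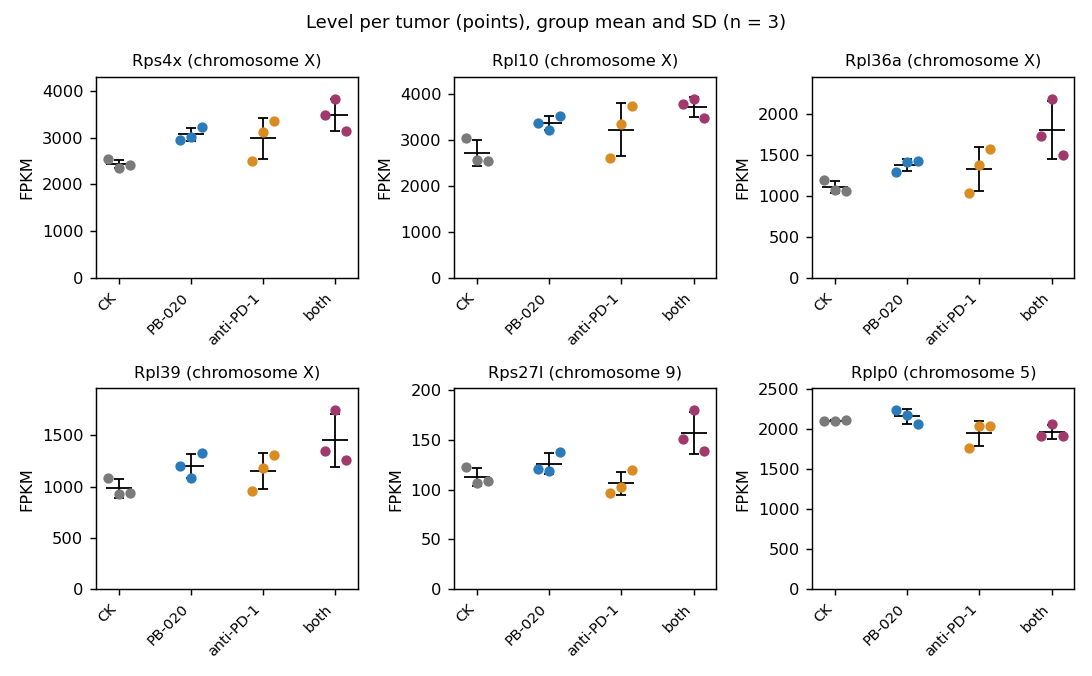
FPKM in each tumor (points), with the group mean and SD (n = 3), for the 5 genes called in PB-020+anti-PD-1 against CK and for Rplp0, the gene with the least spread; "both" is the PB-020+anti-PD-1 group. In all 5 called genes the combination tumors lie above the CK tumors, while Rplp0 stays between 1758 and 2235 FPKM.

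The 5 calls depended on single tumors. Without CK tumor 2, 1 of the 77 genes passed the test, Rps4x. Without CK tumor 3 or PB-020+anti-PD-1 tumor 2, 3 did, and in the latter 1 of the 3 was lower. Calls over all genes fell as well, from 1132 higher and 1302 lower with all tumors. They were 329 and 535 without CK tumor 2, 738 and 839 without CK tumor 3, and 533 and 627 without PB-020+anti-PD-1 tumor 2. Rps4x passed in every one of these fits, with an adjusted p of 2.84e-05 to 0.0487 over all alternatives. Without PB-020+anti-PD-1 tumor 2 the median of the 77 genes was 0.06, with 50 of 77 higher.

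Other genes of chromosome X moved with these 4. Among the 424 tested chromosome X genes that are not ribosomal protein genes, the median log2 change in the combination against CK was 0.30, with 148 called higher and 10 lower, whereas the medians of the autosomes lay between −0.08 and 0.04. The 4 ribosomal protein genes had a median of 0.56. In anti-PD-1 against CK the medians were 0.25 for the 424 genes and 0.29 for the 4, and in PB-020 against CK 0.10 and 0.32. In the combination against anti-PD-1 they were 0.01 and 0.26. In the anti-PD-1 tumors the median deviation from CK was 0.25, 0.18 and 0.32 for the 424 genes, −0.01, 0.34 and 0.50 for the 4, and −0.38, 0.05 and 0.09 for the 73 ribosomal protein genes on autosomes. In anti-PD-1 tumor 1 the 4 genes were thus low beside the other anti-PD-1 tumors, as the 73 were, and the 424 were not. The Y-linked Eif2s3y was at 4.31 to 9.08 FPKM and Ddx3y at 1.95 to 3.89 FPKM in all 12 tumors, although the methods give female mice. The part of chromosome X in the change of these 4 genes was not tested.

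**Figure D5:**
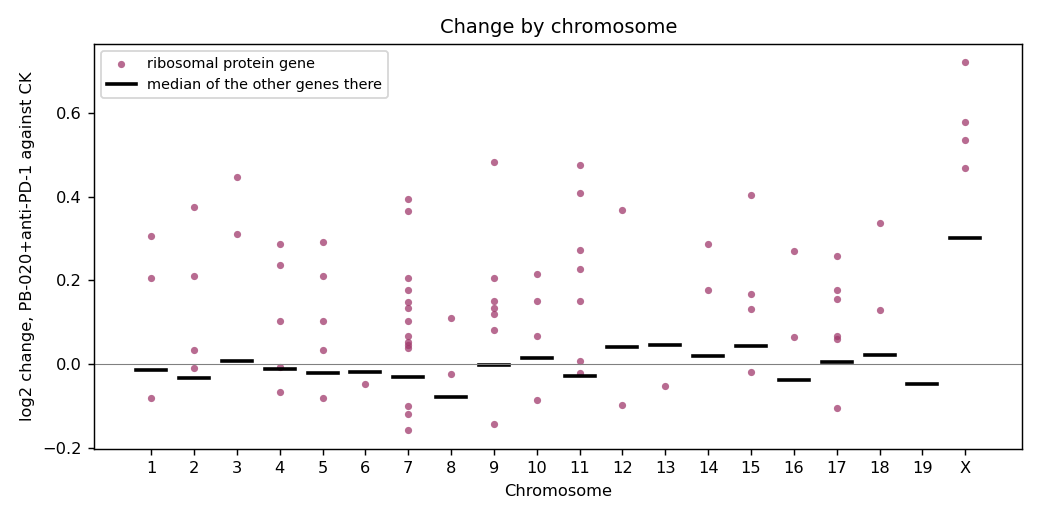
Log2 change in PB-020+anti-PD-1 against CK for each tested ribosomal protein gene (points), by chromosome, with the median of all other tested genes of that chromosome as a bar. The bar of chromosome X lies at 0.30, above the −0.08 to 0.04 of the autosomes, and the 4 ribosomal protein genes there lie between 0.47 and 0.72.

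Cell type markers moved in the combination against CK as well. All 15 T cell markers were higher and 13 passed the test, their sum being at most 35.98 FPKM in CK and at least 62.2 FPKM in the combination. All 5 tested erythroid markers fell, from 679.2 to 1556 FPKM in CK to 126.6 to 183.8 FPKM. Their part in the ribosomal protein values was not tested.

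In the combination against PB-020, which shares the PB-020 tumors with the choosing comparison, 29 of 77 genes were higher, the median log2 change was −0.03, and 49.8% of all genes were higher. None of the 77 passed the test with edgeR or DESeq2. Of all genes 3.35% did with edgeR, and DESeq2 called 536 higher and 573 lower. 2 were higher at an unadjusted p under 0.05, Rps27l (0.32) and Rpl36a (0.40), against 10.2% of all genes. The genes that went down with the smallest p were Rpl36 (−0.40), Rpl19 (−0.17) and Rps13 (−0.14). Rpl36 was at 943.8, 832.0 and 893.1 FPKM in PB-020 and 785.0, 591.8 and 655.4 FPKM in the combination. Its 3 combination tumors lay below all 3 PB-020 tumors. The direction of the median depended on single combination tumors. Without PB-020+anti-PD-1 tumor 2 it was −0.11, with 6 of 77 genes higher. Without tumor 1 it was 0.018, with 41 higher, and without tumor 3 it was 0.0059, with 43 higher.

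Some members are known for roles of their own. Rplp0, Rplp1 and Rplp2 form the stalk that recruits elongation factors. Rplp0 was at 2095 to 2112 FPKM in CK, 2055 to 2235 in PB-020, 1758 to 2036 in anti-PD-1 and 1910.2 to 2066 in the combination, and did not pass the test in any comparison. Rplp1 ranged from 2004 to 3134 FPKM and Rplp2 from 833.3 to 1013 FPKM. Rpsa, which also acts as a laminin receptor, ranged from 1326 to 1954 FPKM, with a log2 change of 0.12 in the combination against anti-PD-1 and 0.15 against CK.

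Rpl5 and Rpl11 bind MDM2 together with 5S RNA and so reach p53. Rpl5 was at 829.0, 1146 and 1213 FPKM in anti-PD-1 and 1375, 1432 and 1191 FPKM in the combination, with a log2 change of 0.30 (adjusted p = 0.664, standard error 0.13). Rpl11 was at 1120.0, 1515 and 1768 FPKM in anti-PD-1 and 1767, 2020.4 and 1645 FPKM in the combination, with a log2 change of 0.29 (adjusted p = 0.684, standard error 0.13). In both the lowest value was anti-PD-1 tumor 1, and the groups overlapped.

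Rps6, the substrate of S6 kinase, was at 39.3, 41.1 and 42.6 FPKM in CK, 48.1, 49.2 and 46.9 in PB-020, 43.2, 52.4 and 44.6 in anti-PD-1 and 46.3, 54.5 and 42.3 in the combination. All 3 PB-020 tumors and all 3 anti-PD-1 tumors lay above CK. The combination overlapped CK narrowly in FPKM, at 42.3 against 42.6. In log2 CPM all 3 combination tumors lay above CK as well, the lowest at 0.0506 and the highest CK tumor at 0.0404. Unlike most members, it was not low in anti-PD-1 tumor 1. Rpl22, which can inhibit other mRNAs and whose loss is known in cancers, ranged from 217.8 to 400.4 FPKM. Rps27a, made as a fusion with ubiquitin, ranged from 801.7 to 1666 FPKM. Rpl13a, known also for silencing interferon-induced mRNAs, ranged from 926.5 to 1856 FPKM, and Rps19, mutated in Diamond-Blackfan anemia, from 569.5 to 845.2 FPKM. None of these 4 passed the test in any comparison.

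The genes around the ribosome were read from 3 lists. Among 24 tested genes of other TOP mRNAs and ribosome-associated proteins, the median log2 change in the combination against anti-PD-1 was 0.05, with 16 higher and 8 lower, and 0 passed the test with edgeR or DESeq2, 4 being higher with edgeR at an unadjusted p under 0.05. Against CK, 3 rose in the combination and 0 fell with edgeR, and DESeq2 called 7, all higher. Of all genes, 8.35% were called higher with edgeR and 10.4% with DESeq2. Npm1, a nucleolar chaperone, rose by 0.54 (adjusted p = 0.00822), and its level was 1144 ± 60.3 FPKM in CK and 1642 ± 197.9 FPKM in the combination (SD, n = 3). Nap1l1, a histone chaperone, rose by 0.29 (adjusted p = 0.0321), and Rpl36al was the third. The translation elongation factors were among the 21 that did not pass with edgeR.

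Of 60 genes of ribosome biogenesis, 42 were higher in the combination against anti-PD-1, with a median of 0.05. With edgeR 0 passed the test and 11 were higher at an unadjusted p under 0.05, and DESeq2 called 1. Against CK 13 rose and 2 fell with edgeR, with a median of 0.10 over the 60, and DESeq2 called 17 higher and 1 lower. Of all 13563 genes, edgeR called 1132 higher and 1302 lower there, and DESeq2 1410 higher and 1379 lower. Dkc1, the pseudouridine synthase of H/ACA particles, was at 29.8 ± 3.9 FPKM in CK and 48.3 ± 5.28 FPKM in the combination (SD, n = 3), and rose by 0.71 (adjusted p = 0.0024). Dkc1 also lies on chromosome X. Rpf2 (0.45, adjusted p = 0.00715) and Mphosph10 (0.50, adjusted p = 0.00907), both factors of subunit assembly, rose as well. Lsg1 (−0.20, adjusted p = 0.0261), a GTPase of late 60S maturation, and Taf1a (−0.32, adjusted p = 0.0473), a subunit of the RNA polymerase I factor SL1, fell. In PB-020 against CK, 40 of the 60 were higher and 0 passed the test with edgeR or DESeq2, with 11 higher and 1 lower at an unadjusted p under 0.05.

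Of 38 tested genes that lead from IGF-1R to mTORC1 and the ribosome, 28 were lower in the combination against anti-PD-1, with a median of −0.07, 0 passing the test with edgeR or DESeq2 and 4 lower with edgeR at an unadjusted p under 0.05. Against CK 1 rose and 5 fell with edgeR, where 1132 of all 13563 genes rose and 1302 fell. Larp1, the TOP mRNA-binding protein, rose by 0.30 in the combination (adjusted p = 0.0285) and by 0.37 in anti-PD-1 (adjusted p = 0.0212), from 32.9 ± 0.94 FPKM in CK to 40.0 ± 2.99 and 42.1 ± 6.19 FPKM (SD, n = 3). Irs1, the adaptor of the IGF-1 and insulin receptors, was at 3.03 ± 0.09 FPKM in CK and 2.08 ± 0.07 FPKM in the combination (SD, n = 3), and fell by 0.52 (adjusted p = 0.00182). Sesn1, an inhibitor of mTORC1, was at 14.9 ± 2.04 FPKM in CK and 7.72 ± 0.76 FPKM in the combination (SD, n = 3). It fell by 0.91 (adjusted p = 0.00182), and Mlst8, a subunit of mTORC1, by 0.32 (adjusted p = 0.017).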

How the data were processed

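RNA of 12 MC38 tumors was sequenced by the authors as pairs of 150 bases. The methods name Bowtie2 and RSEM, and the submitters' processing notes name HISAT, Bowtie2 and GRCm38.p6. Tool versions are not given in the sources used here. The authors deposited expected counts (RSEM estimates, not normalized, whole in 91.0% of values), FPKM values, which the authors divided by effective length and library total, and TPM values, which the authors scaled to one total per library. Group averages made by the authors were not used.

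Expected counts were rounded and filtered with filterByExpr (minimum count 10) of edgeR 4.0.16 in R 4.3.3, which left 13563 genes. Libraries were scaled by TMM, 4 group means were fitted to all 12 tumors with robust, two-sided quasi-likelihood tests. Benjamini-Hochberg adjustment ran over every gene tested. Calls are at an adjusted p under 0.05. Deviations per tumor are in log2 CPM (prior count 2). Errors hold sampling of reads and differences between tumors, not misplaced reads. On simulated counts of 13490 genes, with changes between the combination and anti-PD-1, 57 of 100 genes changed 1.5-fold and 79 of 100 changed 2-fold were called, and 10 of 13290 unchanged ones.

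Members and lists were chosen with earlier results of these data known, and the lists of p53 targets and of processed copies after their values were seen. Named were the 5 members of highest FPKM, those failing the filter, stalk and extraribosomal members, symbols ending in l or x with a paralog, the 5 of smallest p in each comparison with up to 3 of opposite direction, the 3 of most and 3 of least spread, and up to 3 called genes a direction in the other lists. Some items that these rules would name are not reported here. Rps15a, Rps20 and Rps28 were named after their values were seen. Promoter windows and coordinates are from RefSeq on GRCm38.p6 (all 79 members matched). Alternatives were DESeq2 1.42.0, other scalings, limma 3.58.1 on log2(FPKM + 1) or log2(FPKM + 0.1), no filter, a strict filter, a fit of the 2 groups alone, a replicate block and each tumor left out.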

Additional observations from a re-analysis of the deposited data

How the results depend on the processing

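The median log2 change of the ribosomal protein genes moved by less than the SD between tumors under every alternative except 1. That was leaving out anti-PD-1 tumor 1 and PB-020+anti-PD-1 tumor 2 together, added after seeing the data, which gave −0.018 for the combination against anti-PD-1. The SD was that of the per-tumor medians in the compared groups, and the tumors that stood apart widened it, to 0.26 over the anti-PD-1 tumors. A change of sign could therefore stay within it. Without anti-PD-1 tumor 1, the median in anti-PD-1 against CK went from −0.05 to 0.08, and in the combination against anti-PD-1 from 0.19 to 0.07. The ratio of shares of counts moved by less than the SD in all of its alternatives. Of the counts of called genes, the combination against CK gave 5, and 11 with DESeq2, 10 with only the groups compared, 8 with both of these tumors left out (6 higher, 2 lower) and 1 to 7 with single tumors left out. For anti-PD-1 against CK, 0 genes were called by edgeR and 1 by DESeq2, which called 6.65% of all genes higher. There were 3 with both tumors left out and 0 to 2 with single tumors left out. For the combination against PB-020, 0 were called, 1 with only the groups compared and 2 with both tumors left out. Calls over all genes moved too. In the combination against CK 1132 were called higher, with 329 without CK tumor 2 and 1511 with only the groups compared. Why these counts moved was not tested beyond the smaller number of tumors. For genes higher at an unadjusted p under 0.05, fitting only the groups compared gave 41 instead of 8 in PB-020 against CK (5.17% of all genes) and 2 instead of 21 in the combination against anti-PD-1 (3.09% of all genes).

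The replicate block, a fit with the replicate number as a term, called 0 genes in the combination against anti-PD-1 (median 0.20) and 5 in the combination against CK (median 0.14), and changed no call count in the other comparisons. Deviations of same-numbered tumors correlated at −0.21 to 0.29, so the number did not pair the tumors. Depth limits mainly Rpl3l and Rpl39l, with mean counts of 6.08 and 7.08.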
